A study of Mus musculus with 4 samples.

Results

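The chemokine genes Ccl6, Ccl9 and Ccl24 were followed in single cells of the mouse colon, 3 genes of the 11820 in the matrix of unique molecular identifiers (UMIs, one count per captured mRNA molecule). They were taken by symbol. Ccl9 and Ccl24 were selected on their diet contrast, since earlier results of these same data showed them moving in opposite directions with diet, and on their levels along Ly6c2, MHC II and C1q. Those values are therefore given as description without a test. The samples were lamina propria cells of 4 male C57/Bl6N mice, 2 on normal chow (chow 9 and chow 11) and 2 given a coconut-based high-fat diet (HFD 1 and HFD 3). The HFD, labelled 60%, was fed for 1 week from an age of 6 to 7 weeks. The same duration and age are listed for the chow mice. Each mouse gave 1 10x Genomics 3' v2 library of live CD45+ Lin- CD11b+ CD24- cells that carried Ly6C or CD64. The labels name no genetic change in any group. With 2 mice per diet, an exact permutation test cannot give a two-sided p below 0.33. The p-values speak for these mice alone, and the test used takes the spread of a gene in part or wholly from all genes tested.

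Chemokines are small secreted proteins that draw cells along a gradient by way of receptors on the target cell. The CC group carries 2 adjacent cysteines near the start of the mature protein. CCL6 and CCL9 act on the receptor CCR1, which monocytes and macrophages carry, and are made in quantity by myeloid cells of rodents. CCL24, or eotaxin-2, acts on CCR3 and is known for drawing eosinophils, and macrophages exposed to interleukin-4 are a known source. In the colon, monocytes enter from the blood with high Ly6C, gain MHC II and later become resident macrophages that make the complement protein C1q.

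All 3 genes lie on the reverse strand of GRCm38. Ccl9 (ENSMUSG00000019122) spans chr11:83572919-83578636, and Ccl6 (ENSMUSG00000018927) lies 9245 bases further along at chr11:83587882-83593087. Ccl24 (ENSMUSG00000004814) lies apart at chr5:135569937-135573049. The coding sequence around the adjacent cysteines is shown because it holds the feature that names the family and lets the 3 genes be compared. Each stretch has 66 bases, from the GENCODE M21 transcript, with the 2 cysteine codons in capitals.
Ccl6: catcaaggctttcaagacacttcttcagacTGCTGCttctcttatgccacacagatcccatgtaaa
Ccl9: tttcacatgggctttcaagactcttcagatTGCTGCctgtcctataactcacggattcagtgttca
Ccl24: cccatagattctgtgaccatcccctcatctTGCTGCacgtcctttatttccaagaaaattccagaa

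The cysteine codons were 50 and 51 of 116 in Ccl6, 57 and 58 of 122 in Ccl9, and 33 and 34 of 119 in Ccl24. In Ccl6 and Ccl9 the capitals fall in exon 3 of 4, within chr11:83589356-83589414 and chr11:83575896-83575951. In Ccl24 they fall in exon 2 of 3, within chr5:135572635-135572693. Over the aligned coding sequence, Ccl6 and Ccl9 were identical at 244 of 345 bases (70.7%). Ccl24 was identical to Ccl6 at 181 of 332 bases (54.5%) and to Ccl9 at 185 of 331 bases (55.9%).

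The files held 904 and 2002 cells of the chow mice and 966 and 1548 cells of the HFD mice. The median cell had 3266 to 3926 UMIs per library, and library totals ran from 3824228 to 7947893 UMIs. Of the cell barcodes, 23 occurred in more than 1 library. The sorted type was checked on marker genes. The 6 macrophage and monocyte markers summed to 26888 to 29834 CPM in every mouse (UMIs scaled to 1e6 UMIs of the same cells), and the 3 T cell markers to 2.35 to 13.3 CPM. Of the 5 eosinophil markers 1 was in the matrix, at 0.716 to 2.35 CPM. Of the 4 plasma and B cell markers 3 were in the matrix, summing to 3729 to 4587 CPM on chow, against 1296 to 2626 CPM on HFD. Epithelial keratin and Epcam counts stood highest in HFD 3, at 110.5 CPM for the 4 markers against 2.61 to 14.97 CPM in the other 3 mice.

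Ccl6 was close to absent. It had 6 and 4 UMIs in the chow mice and 5 and 8 in the HFD mice, 23 in all, each in a separate cell. These are 0.503 to 1.57 CPM per mouse, and Ccl6 ranked 10877 of 11820 genes by UMIs. No diet or class difference was detectable at this depth, and the gene did not pass the filter on low counts in any comparison. Ccl9 and Ccl24 are therefore the members whose values are described below. Of the 1410 overlapping 31-base words in the Ccl6 transcript, 1392 occur in no other GENCODE gene on either strand and the other 18 are shared with Slc17a4, all of them in the last 400 bases. The part of word sharing in the low count was not tested.

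Ccl9 was the broad member. It had 11064 UMIs and was found in 2736 cells (50.5%), 257th of all genes and 7th of the 26 chemokine ligands with a row in the matrix. The ligands above it were Cxcl2 (123200 UMIs), Ccl4, Ccl3, Pf4, Cxcl16 and Cxcl1. Ccl24 was the narrow member, with 2082 UMIs in 379 cells (6.99%), 13th of the 26. These are counts of molecules from 3' tags and not of protein.

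The 2 genes differed in how their UMIs were spread over cells. The 1% of cells richest in Ccl24 held 70.9% and 62.6% of its UMIs in the chow mice and 69.7% and 64.1% in the HFD mice. For Ccl9 the richest 1% held 17.6% and 14.4% on chow and 10.8% and 14.2% on HFD. This share also depends on how many cells carry the gene. A cell with Ccl24 had on average 2.61 and 2.47 of its UMIs on chow, and 4.59 and 7.63 on HFD. The highest single cell carried 15 and 27 Ccl24 UMIs on chow, and 44 and 293 on HFD. Of the 70 cells with 5 or more Ccl24 UMIs, 48 came from HFD 3, 10 from HFD 1, 7 from chow 11 and 5 from chow 9.

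**Figure D1:**
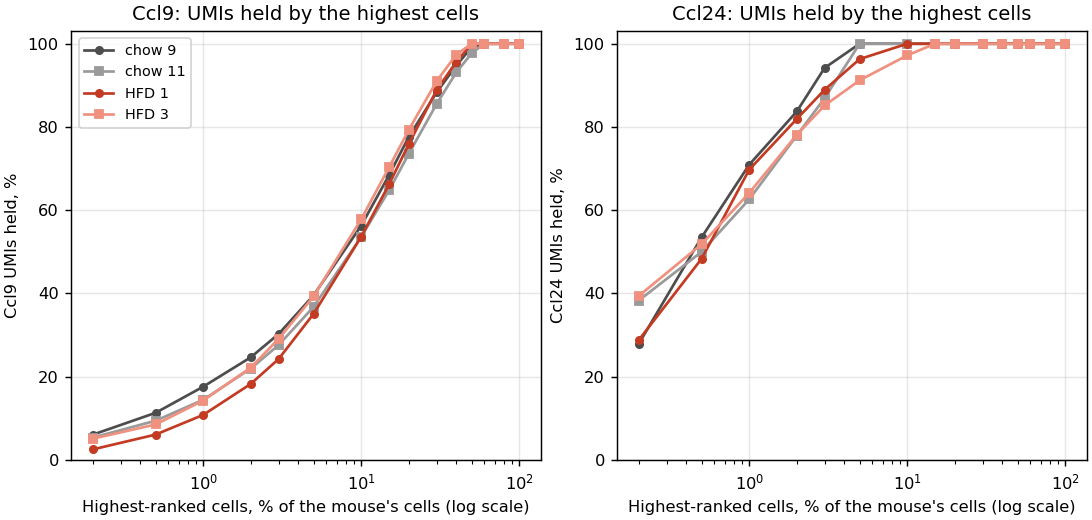
Share of each gene's UMIs (vertical axis, %) held by the highest-ranked cells of a mouse (horizontal axis, % of that mouse's cells, log scale); each line is 1 mouse, grey for chow and red for HFD. The 1% of cells richest in Ccl24 held 62.6% to 70.9% of its UMIs, against 10.8% to 17.6% for Ccl9.

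Cells were placed in 5 classes by their own counts per 10000 UMIs. C1q-high cells had at least 50 from C1qa, C1qb and C1qc. Of the rest, Ly6C+ cells had at least 5 from Ly6c2 and MHC II-high cells at least 200 from H2-Aa, H2-Ab1, H2-Eb1 and Cd74. The remaining cells had neither. C1q-high cells were 82.4% and 90.5% of the chow mice and 41.3% and 36.0% of the HFD mice. Between 10.9% and 12.1% of cells lay within a factor of 2 of each threshold. Fewer cells of a type and less RNA per cell cannot be told apart in a whole library, so levels are given by class.

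Over whole libraries, Ccl9 stood at 536 and 547 CPM on chow, against 586 and 434 CPM on HFD. The diets overlapped. Within every class, however, the 2 HFD values were lower than either chow value. In Ly6C+ MHC II-low cells, the monocyte end of the series, Ccl9 stood at 1965 and 1765 CPM on chow, against 1087 and 1032 CPM on HFD. In Ly6C+ MHC II-high cells it stood at 966 and 1331 CPM on chow, against 714 and 460 CPM on HFD, where the first value rests on 2 cells. Of the 5 classes, the ratio of the diets was largest in Ly6C- MHC II-high cells, at 896 and 1310 CPM on chow, against 383 and 280 CPM on HFD, a ratio of means of 3.33. In the remaining cells the values were 1469 and 1242 CPM on chow, against 776 and 564 CPM on HFD. In C1q-high cells, the resident end, they were 409 and 482 CPM on chow, against 352 and 273 CPM on HFD.

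The share of cells with a Ccl9 UMI followed the same order. In C1q-high cells it was 46.8% and 52.9% on chow and 40.1% and 34.1% on HFD. In Ly6C+ MHC II-low cells it was 78.8% and 90% on chow and 72.9% and 72.4% on HFD. With every cell thinned to 1500 UMIs, which left out 585 shallower cells (260 chow, 325 HFD), the expected shares were 28.7% and 35.1% against 26.1% and 20.5% in C1q-high cells, and 77.8% and 83.9% against 61.7% and 61.9% in Ly6C+ MHC II-low cells.

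The overlap of the whole libraries and the separation of the classes were set side by side by giving every mouse the same class mix, the mean over the 4 mice. Ccl9 then stood at 772 and 848 CPM on chow, against 501 and 403 CPM on HFD, 1.79-fold lower on HFD by the means. As a mean over each mouse's own mix it had been 583 ± 16.1 CPM on chow, against 535 ± 90.8 CPM on HFD (SD, n = 2). Ly6C+ cells, where Ccl9 is high, made up more of the HFD samples. They numbered 54 and 78 on chow and 295 and 564 on HFD.

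Ccl24 went the other way. Over whole libraries it stood at 22.4 and 27.9 CPM on chow, against 70.9 and 269 CPM on HFD, with no overlap and a ratio of means of 6.75. HFD 3 stood well above HFD 1, so the size of the ratio rests on which HFD mouse is taken. In C1q-high cells the values were 23.7 and 25.6 CPM on chow, against 74.6 and 454 CPM on HFD. The make-up of this class differed between the diets. In its Lyve1 and Cd163 negative cells, which are most of it, the 4 monocyte markers summed to 324 and 436 CPM on chow, and to 2342 and 2856 CPM on HFD. The 5 dendritic cell markers summed there to 42.4 and 47.0 CPM on chow, and to 143 and 136 CPM on HFD. The 5 resident macrophage markers summed to 19905 and 20693 CPM on chow, and to 16623 and 15622 CPM on HFD. The part of these differences in the levels of Ccl24 and Ccl9 was not tested. In Ly6C- MHC II-high cells Ccl24 stood at 40.01 and 8.24 CPM on chow, from 5 UMIs and 1 UMI, and 156 and 230 CPM on HFD. A single cell held 34 of the 117 UMIs of this class in HFD 1, and another 119 of the 268 in HFD 3. In the remaining cells no mouse had more than 5 Ccl24 UMIs. Without the single cell richest in Ccl24 in each mouse, whole libraries stood at 18.5 and 24.5 CPM on chow, against 59.4 and 217 CPM on HFD, still without overlap.

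Ly6C+ cells did not show the same order for Ccl24. In Ly6C+ MHC II-low cells it stood at 0 and 132 CPM on chow, against 26.5 CPM in both HFD mice. All 27 UMIs behind the chow 11 value came from 1 cell. The 0 of chow 9 allows up to 18.3 CPM, taking 3 counts as the limit of a count of 0. In Ly6C+ MHC II-high cells the values were 0 and 57.9 CPM on chow, against 18.4 and 107 CPM on HFD, where the 0 of chow 9, from 2 cells, allows up to 362 CPM and the chow 11 value rests on 3 UMIs.

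**Figure D2:**
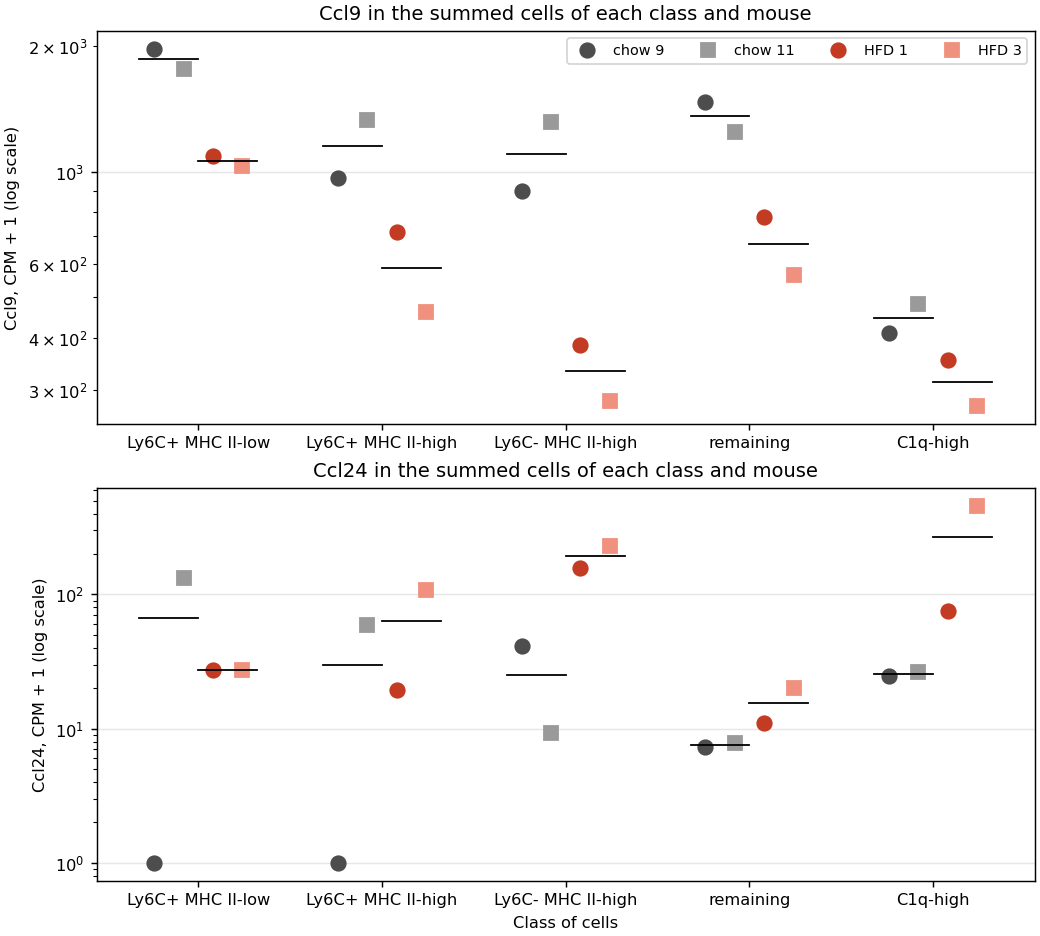
Ccl9 (top) and Ccl24 (bottom) in the summed cells of each class (horizontal axis) and mouse, as CPM + 1 on a log scale; points are mice, grey for chow and red for HFD, and bars are the means of the 2 mice of a diet. Both HFD points lie below both chow points for Ccl9 in all 5 classes, whereas for Ccl24 they lie above in the Ly6C- MHC II-high, remaining and C1q-high classes and overlap in both Ly6C+ classes.

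The share of cells with a Ccl24 UMI was 3.65% and 4.50% on chow and 6.11% and 12.7% on HFD. In C1q-high cells it was 4.03% and 4.75% on chow against 6.77% and 18.7% on HFD, and 1.72% and 2.64% against 3.96% and 12.3% after thinning. In the remaining cells it was 1.64% and 1.61% on chow and 3.30% and 4.04% on HFD, at a median depth of 2322 to 3055 UMIs against 3817 to 4319 in C1q-high cells. No cell type known to lack these genes was sorted, so the share that free RNA gives is not known here. In Ly6C+ MHC II-low cells the share was 0% and 1.67% on chow and 2.97% and 6.397% on HFD. In every mouse the C1q-high share stood above those of both classes. It did not stand above every class, since the share in Ly6C- MHC II-high cells was 4.55% in chow 9 and 10.5% in HFD 1, and that in Ly6C+ MHC II-high cells was 5.56% in chow 11, from 1 cell of 18. The share of C1q-high cells with 5 or more Ccl24 UMIs was 0.671% and 0.331% on chow and 1.00% and 6.28% on HFD.

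Fitted over all genes with edgeR, Ccl9 differed between the diets by a log2 fold change (HFD over chow) of -0.31 (standard error 0.16) in all cells, -0.65 (0.17) in C1q-high cells and -1.18 (0.20) in Ly6C+ cells. Ccl24 differed by 2.52 (0.58) in all cells, 3.29 (0.64) in C1q-high cells and -0.69 (0.79) in Ly6C+ cells. The last value turned to 2.54 (0.96) once the richest cell of each mouse was left out. Without HFD 3, Ccl24 stood at 1.27 in all cells and 1.48 in C1q-high cells, and without HFD 1 at 3.17 and 4.04. The epithelial markers that stood highest in HFD 3 summed to 9.37 CPM in its Lyve1 and Cd163 negative C1q-high cells. They summed to 2.51 to 12.2 CPM in those of the other mice. Ccl24 stood at 442 CPM in those cells of HFD 3, and the part of the epithelial markers in its level was not tested.

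Along Ly6c2 itself, Ccl9 rose in every mouse. From cells without Ly6c2 to those with at least 10 per 10000 UMIs, it went from 465 to 1821 CPM in chow 9, from 506 to 1834 CPM in chow 11, from 351 to 1055 CPM in HFD 1 and from 274 to 775 CPM in HFD 3. Along MHC II it fell from the lowest to the highest of 5 equal bins, from 1856 to 345 CPM in chow 9, from 1705 to 339 CPM in chow 11, from 1021 to 289 CPM in HFD 1 and from 943 to 207 CPM in HFD 3. Most of that fall lay between the lowest bin and the next. Along C1q it went from 1522 to 300 CPM in chow 9, from 1542 to 420 CPM in chow 11, from 777 to 284 CPM in HFD 1 and from 634 to 237 CPM in HFD 3.

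The diets were farther apart at the low end of C1q than at its high end. In the lowest bin and the next, the chow mice ranged from 1353 to 1549 CPM and the HFD mice from 453 to 777 CPM. In the highest bin HFD 1 (284 CPM) was close to chow 9 (300 CPM).

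The shape of Ccl24 rested in part on single cells. On chow it was highest where MHC II was lowest, at 77.8 and 172 CPM in the lowest bin against 2.52 and 4.55 CPM in the highest. On HFD the third bin was the highest, at 119 and 438 CPM, and the lowest bin held 25.3 and 24.01 CPM, below both chow mice. The richest cell of these highest bins held 15 UMIs in chow 9, 34 in HFD 1 and 293 in HFD 3. With the richest cell left out of every bin, the second bin of chow 9 was the highest, at 45.3 against 41.6 CPM in the lowest. The second was also the highest in HFD 3, at 253 against 240 CPM in the third. In HFD 1 the third bin stayed the highest, at 75.7 against 68.3 CPM in the second. The lowest bin of chow 11 stayed the highest, at 127 CPM. Along C1q, HFD 1 peaked in the second bin (186 CPM) and HFD 3 in the fourth (829 CPM), whereas neither chow mouse passed 50.2 CPM in any bin. The fourth bin of HFD 3 holds the cell with 293 UMIs. With the richest cell left out of every bin, it stood at 301 CPM, close to the third at 300 CPM. The second bin of HFD 1 stayed the highest, at 134 CPM. In cells with at least 10 Ly6c2 UMIs per 10000, HFD mice stood at 12.0 and 28.1 CPM, against 106 and 378 CPM in cells with none. The chow mice stood there at 0 and 174 CPM, the latter from 30 UMIs in 2 cells of chow 11, against 24.3 and 26.4 CPM in cells with none.

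**Figure D3:**
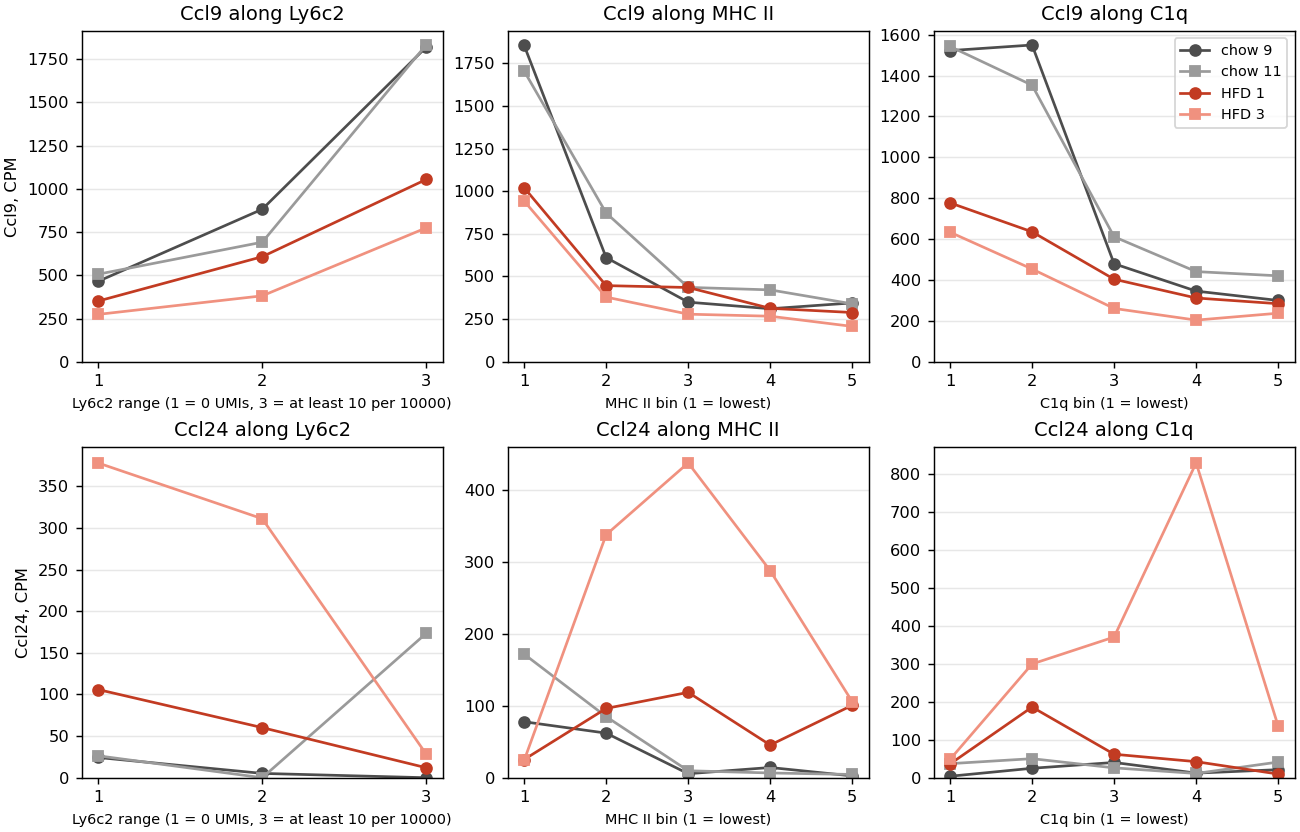
Ccl9 (top row) and Ccl24 (bottom row) in CPM of the summed cells (vertical axes) along 3 ranges of Ly6c2 and 5 equal bins of MHC II and of C1q (horizontal axes); each line is 1 mouse, grey for chow and red for HFD. Ccl9 was lower in the highest than in the lowest bin of MHC II and of C1q in all 4 mice. Ccl24 was highest in the lowest MHC II bin on chow and in the third on HFD. With the richest cell left out of every bin, another bin was highest in chow 9 and HFD 3, but not in the other mice.

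Among C1q-high cells, the part that carried Lyve1 or Cd163 was compared with the rest, a split the selection of the genes did not use. The MHC II levels of the positive and negative cells, along which the genes were also selected, were not compared. LYVE1 binds hyaluronan and CD163 takes up haemoglobin, and both mark resident macrophages. These cells numbered 41 of 745 and 175 of 1812 in the chow mice but only 7 of 399 and 4 of 557 in the HFD mice. Median depth was 4082, 3298, 1744 and 1755 UMIs in the positive cells of chow 9, chow 11, HFD 1 and HFD 3, against 4236, 3967, 3844 and 4331 in the negative cells. With every cell thinned to 1500 UMIs, the edgeR log2 fold change of Ccl9 was 1.80 (standard error 0.54, adjusted p = 0.0677), 20 genes were called in place of 42, and Ccl24 did not pass the filter on low counts. In cells without and with the markers, Ccl9 stood at 336 and 1626 CPM in chow 9, at 410 and 1193 CPM in chow 11, at 332 and 2537 CPM in HFD 1, and at 268 and 1614 CPM in HFD 3. It was higher in the positive cells of 4 of 4 mice, 2.91-fold to 7.63-fold. Under TMM, the scaling the test uses, the ratios were 4.35 in chow 9, 2.65 in chow 11, 4.57 in HFD 1 and 3.02 in HFD 3. Within the positive cells the diets overlapped for Ccl9, unlike within each of the 5 classes, and the HFD values rest on 7 and 4 cells.

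Ccl24 was higher in the positive cells of the same 4 mice. It went from 12.6 to 210 CPM in chow 9 and from 10.8 to 172 CPM in chow 11. In HFD 1 it went from 72.8 to 267 CPM, the latter from 4 UMIs, and in HFD 3 from 442 to 3765 CPM, the latter from 35 UMIs in 1 cell of 4. The ratio was 16.7 in chow 9 (95% exact binomial counting interval 10.5 to 26.6), 15.8 in chow 11 (11.7 to 21.5), 3.67 in HFD 1 (0.983 to 9.64) and 8.52 in HFD 3 (5.90 to 11.9). Those intervals cover counting error only. Under TMM the ratios were 15.03, 14.4, 2.20 and 4.28, so that of HFD 3 fell below its interval.

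With the mouse as a term, edgeR's quasi-likelihood test gave a log2 fold change of 1.83 for Ccl9 (standard error 0.42, adjusted p = 0.00261) and 2.96 for Ccl24 (0.37, adjusted p = 1.7e-12). Both passed the false discovery rate of 1%, against 0.55% of the 5094 genes tested that were called higher (28) and 0.275% that were called lower (14). Scaled by library totals without TMM, the log2 fold changes were 2.27 and 3.49, and the calls were 76 higher and 18 lower. In this split the fit took the spread of a gene wholly from the trend over all genes. The adjusted p of a gene thus does not measure its own spread between mice. Ccl24 entered the test through the HFD mice, since the filter asks for a UMI in 5% of the C1q-high cells. Its mean share was 4.39% on chow and 12.7% on HFD. The fits that leave out a mouse kept the shares of all mice. The call rests on both chow mice, whose positive cells are the better counted. The edgeR adjusted p was 0.352 for Ccl9 and 0.0597 for Ccl24 without chow 9, and 0.114 and 0.0282 without chow 11. It was 0.0325 for Ccl9 without HFD 1. Ccl9 also missed the limit without the filter on low counts (edgeR adjusted p = 0.0432), with a gate of 2 UMIs (0.0318), after thinning and without the term for the mouse (0.0165), and Ccl24 without the term for the mouse (0.477). In the chow mice alone, a fit chosen after seeing the data and made with no filter on low counts, the edgeR log2 fold changes were 1.59 (adjusted p = 1.2e-15) and 3.72 (adjusted p = 1.8e-35).

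The weight of the positive cells differed between the diets. They held 50% and 61.6% of the C1q-high Ccl24 UMIs on chow, from 5.50% and 9.66% of the cells. On HFD they held 3.25% and 3.13% from 1.75% and 0.718% of the cells. Within the C1q-high cells of the HFD mice, most Ccl24 UMIs thus lay in cells without Lyve1 or Cd163, where it stood at 72.8 and 442 CPM against 12.6 and 10.8 CPM on chow. The plasma and B cell markers summed to 257 CPM in the positive and 1850 CPM in the negative cells of chow 9, and to 5357 and 772 CPM in those of chow 11. On HFD they stood at 200 and 215 CPM in the positive cells, against 140 and 101 CPM in the negative cells. Their part in the differences of Ccl9 and Ccl24 was not tested.

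Other genes moved with the same split. Retnla, a secreted protein of alternatively activated macrophages, rose most (log2 fold change 4.98, edgeR adjusted p = 2.1e-18), followed by Iigp1 and Ccl24. Iigp1, an interferon-induced GTPase, rose by 3.31, Cd36, a scavenger receptor for fatty acids, by 2.56 and Ltc4s, the leukotriene C4 synthase, by 2.44. The largest falls were those of Kynu, a tryptophan-degrading enzyme (-3.90), Gm19434 (-3.26), H2-M2 (-3.07), Dppa3 (-2.88) and Ccl5, a T cell attractant (-2.79). All were called. The named genes that rose did so in 4 of 4 mice, as did 22 of the 28 genes called higher. In the positive cells, Iigp1 stood at 17.8, 43.3, 184 and 3255 CPM (TMM scaled) in chow 9, chow 11, HFD 1 and HFD 3. Retnla stood there at 1597, 1266, 10628 and 603 CPM. The HFD values rest on 7 and 4 cells. No UMI of Kynu, Gm19434 or Dppa3 was found in the positive cells of the HFD mice, but their totals of 14976 and 9296 UMIs allow up to 200 and 323 CPM, far above the 6.82 to 27.3 CPM (TMM scaled) of the negative cells. For these 3 genes the HFD mice therefore show no direction.

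Of the 30 other chemokine ligands on the list, 23 had a row and 11 were tested here. Pf4, the chemokine platelet factor 4, rose (2.30) and so did Ccl7, a monocyte attractant (1.78). Ccl5 and Ccl3 (-2.05) fell, and 7 did not pass. Of the 14 alternative activation genes 9 were tested and 3 rose, namely Retnla, the lectin Clec10a (2.03) and the mannose receptor Mrc1 (1.81). The median log2 fold change was 0.51 over those 9 genes and -0.28 over the 11 ligands, against -0.09 over all genes tested. None of the 7 chemokine receptors tested was called. The list genes were chosen with earlier results of these data known.

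The split of C1q-high cells by Cd4, which marks a long-lived part of the gut macrophages, went the other way. Cd4 positive cells numbered 206 and 417 on chow and 25 and 26 on HFD. In cells without and with Cd4, Ccl24 stood at 32.4 and 5.50 CPM in chow 9 and at 30.8 and 11.8 CPM in chow 11. In HFD 1 it went from 79.2 to 9.17 CPM and in HFD 3 from 480 to 7.54 CPM, where each positive sum held 1 UMI. The ratio of positive to negative cells was 0.170 in chow 9 (interval 0.0604 to 0.388), 0.383 in chow 11 (0.238 to 0.589), 0.116 in HFD 1 (0.00291 to 0.657) and 0.0157 in HFD 3 (0.000397 to 0.0877). It was below 1 in 4 of 4 mice.

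Ccl9 stood at 486 and 246 CPM in the Cd4 negative and positive cells of chow 9 and at 557 and 282 CPM in those of chow 11. In HFD 1 the values were 375 and 36.7 CPM, and in HFD 3 285 and 60.3 CPM. The positive cells were lower in 4 of 4 mice, 1.98-fold in both chow mice, 10.2-fold in HFD 1 and 4.73-fold in HFD 3, where the HFD positive sums held 4 and 8 UMIs. The difference between the diets in this ratio was not tested. Median depth was 5040.5, 4521, 3738 and 4767.5 UMIs in the positive cells of chow 9, chow 11, HFD 1 and HFD 3, against 4001, 3681, 3825 and 4268 in the negative cells.

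**Figure D4:**
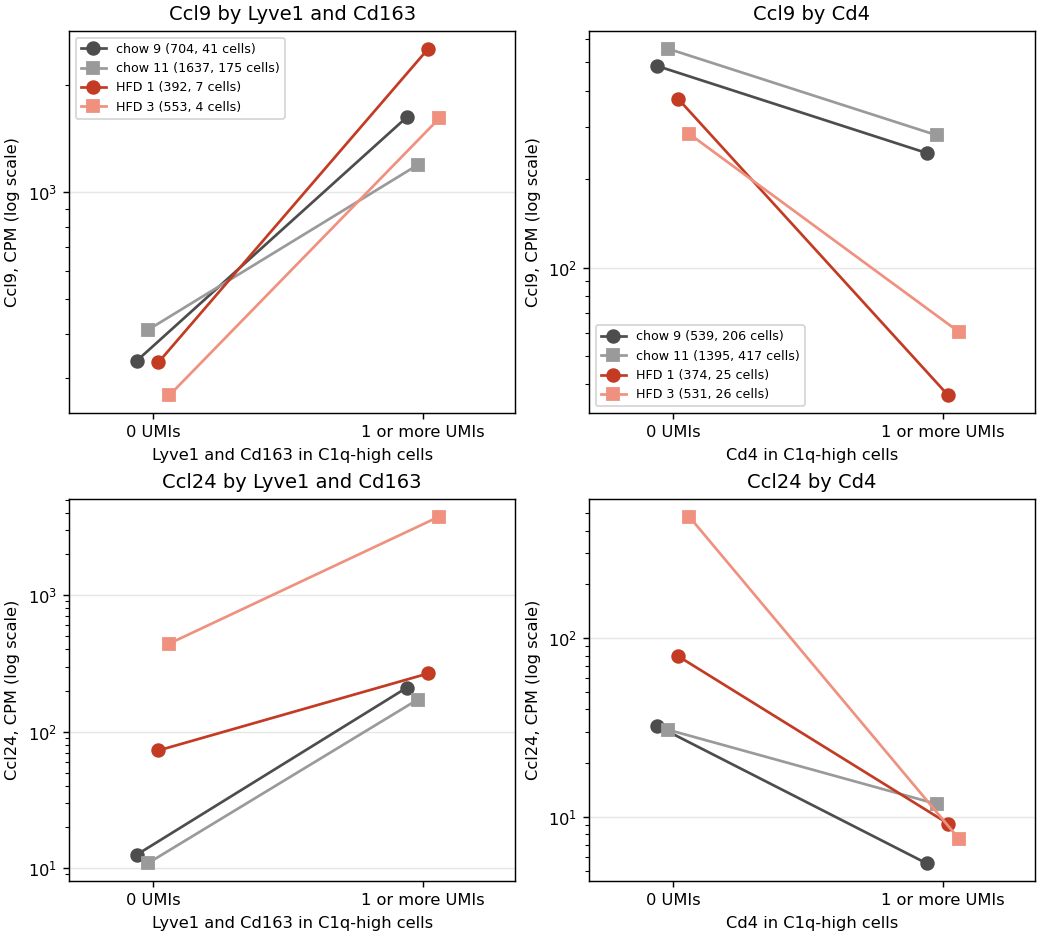
Ccl9 (top) and Ccl24 (bottom) in CPM on a log scale in C1q-high cells without and with a UMI of Lyve1 or Cd163 (left) and of Cd4 (right); each line is 1 mouse, grey for chow and red for HFD, with its numbers of negative and positive cells in the key of the top panels. Both genes were higher in Lyve1 or Cd163 positive and lower in Cd4 positive cells of 4 of 4 mice.

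The edgeR quasi-likelihood test gave a log2 fold change of -2.39 for Ccl24 (standard error 0.37, adjusted p = 0.00586), which was called, and -1.24 for Ccl9 (0.20, adjusted p = 0.0107), which missed the 1% limit. Here 0.0196% of the 5094 genes tested were called higher and 0.255% lower. By the same filter, Ccl24 entered this test through the HFD mice as well. The Ccl24 call was lost without HFD 1 (edgeR adjusted p = 0.038) and without HFD 3 (0.048), by DESeq2 (adjusted p = 0.0607) and without the term for the mouse (edgeR adjusted p = 0.930), and Ccl9 passed without chow 9 (0.00801), without chow 11 (0.00405) and without HFD 1 (0.00928).

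Of the 14 genes called in this split, Npl, which breaks down sialic acid, was the one that rose (1.09). The largest falls were those of Retnla (-3.17), Ccl24, the antibody-joining chain Jchain (-2.22), the calcium-binding protein S100a4 (-2.20) and osteopontin, Spp1 (-2.03). Plasma and B cell markers summed to 2492 and 226 CPM in the Cd4 negative and positive cells of chow 9, to 1480 and 436 CPM in those of chow 11, to 144 and 91.7 CPM in those of HFD 1, and to 102 and 98.0 CPM in those of HFD 3. The 4 monocyte markers were lower in the Cd4 positive cells of 4 of 4 mice, at 136 against 407 CPM in chow 9, 335 against 476 CPM in chow 11, 825 against 2441 CPM in HFD 1 and 1545 against 2930 CPM in HFD 3. So were the 5 dendritic cell markers, at 33.9 to 60.3 CPM in the positive and 52.0 to 147 CPM in the negative cells. The part of these markers in the differences of Ccl9 and Ccl24 was not tested. None of the 11 other ligands tested was called, 1 of 7 receptors fell (Ccr2, the monocyte receptor for CCL2, -1.54), and 1 of 9 alternative activation genes fell (Retnla). The medians of the lists were 0.38, 0.04 and 0.04, against 0.00 over all genes tested.

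Cells with both genes were counted as well. Among C1q-high cells with a Ccl24 UMI, 80% and 77.9% also had a Ccl9 UMI in the chow mice, against 45.5% and 51.6% of those without Ccl24. In HFD 1 the shares were 48.1% and 39.5%, and in HFD 3 32.7% and 34.4%. The Ccl24 positive cells had a median depth of 3695 and 3353.5 UMIs on chow, against 4238 and 3953 in the others, and of 4873 and 5357 UMIs on HFD, against 3803.5 and 4142. The part of depth in these shares was not tested. Ccl9 stood at 885 and 1235 CPM in the Ccl24 positive cells of the chow mice, against 389 and 447 CPM in the others, and at 385 and 182 CPM against 349 and 300 CPM on HFD. The 2 genes were thus found together more often on chow and not in HFD 3, and the difference between the diets was not tested.

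In the Ly6C- MHC II-high cells of the HFD mice, those with a UMI of AA467197 numbered 68 and 101. They held Ccl24 at 264 and 446 CPM, against 62.1 and 107 CPM in cells of that class without it. A single cell held 34 of the 92 Ccl24 UMIs of these cells in HFD 1, and a single cell 119 of the 188 in HFD 3, so the size of the gap rests largely on it there. Chow mice had 1 such cell each, so no comparison could be made there. Cells of the class with Cd209a, a dendritic cell lectin, numbered 43 and 59 on HFD and held Ccl24 at 9.79 and 24.4 CPM, from 2 and 6 UMIs. Ccl9 was close to level between AA467197 positive and negative cells of HFD 1 (375 and 390 CPM) and lower in the positive cells of HFD 3 (188 and 333 CPM).

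The receptor side could be read for 1 of the 2 receptors. Ccr3 has no row in the matrix. Ccr1 stood at 402 and 450 CPM on chow, against 535 and 479 CPM on HFD over whole libraries. In Ly6C+ MHC II-low cells it stood at 244 and 304 CPM on chow, against 656 and 521 CPM on HFD, in C1q-high cells at 413 and 460 CPM on chow, against 521 and 528 CPM on HFD. In Ly6C+ MHC II-high cells the order was the reverse, at 1329 and 482 CPM on chow, from 2 and 18 cells, and 470 and 354 CPM on HFD. The edgeR log2 fold change between the diets was 0.03 in all cells (adjusted p = 0.876), 0.13 in C1q-high cells (adjusted p = 0.529) and 0.56 in Ly6C+ cells (adjusted p = 0.333), and none was called. Ccr1 was not called between Lyve1 or Cd163 positive and negative cells (-0.62, standard error 0.44, edgeR adjusted p = 0.787) or by Cd4 (0.09, standard error 0.11, edgeR adjusted p = 0.912).

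Among the other chemokine ligands the diets differed in both directions. In all cells, 2 of 11 tested rose and 7 fell on HFD, where 7.68% of the 4948 genes tested were called higher and 8.55% lower. Cxcl9 and Ccl5, which draw T cells, rose by log2 fold changes of 5.28 and 4.004, and Pf4 (-3.58) and Cxcl1, a neutrophil attractant (-3.13), fell most. In C1q-high cells, 2 rose and 5 fell, where 4.99% of 5095 genes were called higher and 4.67% lower. Cxcl9 (5.34), Ccl5 (4.31), Pf4 (-2.50) and Cxcl1 (-2.11) led there too. In Ly6C+ cells, 1 rose (Cxcl9, 4.01) and 3 fell (Pf4, -3.05, Cxcl1, -2.39, and Ccl3, -1.37), where 0.2% of 4504 genes were called higher and 0.155% lower. The median over the 11 ligands was -1.63 in all cells, -0.67 in C1q-high cells and -0.24 in Ly6C+ cells, against -0.01, -0.03 and 0.00 over all genes tested. Ccl9 and Ccl24 are not in these counts, and nothing is read from them about either. Without TMM the calls over all genes were 677 higher and 303 lower in all cells, where TMM gave 380 and 423. They were 362 and 186 in C1q-high cells, where TMM gave 254 and 238, and 17 and 7 in Ly6C+ cells, where TMM gave 9 and 7.

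Among the receptors in all cells, 2 of 7 tested rose, Ccr7 (2.98) and Ccr2 (0.93), and 3 fell, Cx3cr1 (-2.37) and Cxcr4 (-0.97) by the most. In C1q-high cells Ccr7 rose (3.11) and Cx3cr1 fell (-1.59), and in Ly6C+ cells none of the 7 was called. Of the 9 alternative activation genes tested in all cells, 2 rose on HFD, the chitinase-like Chil3 (2.62) and the fungal lectin receptor Clec7a (0.97), and 2 fell, Mrc1 (-2.98) and the lectin Mgl2 (-1.68). In C1q-high cells Chil3 (3.10) and Clec7a (1.24) rose and Mrc1 (-1.97) fell. In Ly6C+ cells none of 6 was called. Retnla and Clec10a, which rose with Ccl24 in Lyve1 or Cd163 positive cells, were not called by diet in all cells (-1.93, edgeR adjusted p = 0.087, and 0.55, adjusted p = 0.0275) or in C1q-high cells (-0.81, adjusted p = 0.369, and 0.11, adjusted p = 0.749). These list genes share the control mice with Ccl9 and Ccl24.

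The genes most like each member were sought over 20 sums, one for each mouse and class with at least 20 cells, with C1q-high cells divided by Lyve1 and Cd163, among 2538 genes with a mean of at least 50 CPM. The sums share mice and class thresholds, so the correlations are descriptions. Ccl9 was most like Ahnak, a large scaffold protein (Pearson r = 0.92), then Vim, the intermediate filament vimentin (0.83), the transcription factor Klf2 (0.80), the nuclear RNA Neat1 (0.79) and Id3 (0.78). By Spearman correlation 2 of these 5 stayed among the first 5, and by deviations from the mouse mean 1 did, with Ahnak first by all 3 measures. Ccl24 was most like Pcna, the replication clamp (0.82), Tuba1b, a tubulin (0.78), Cetn3 (0.77), Cd164 (0.76) and Fubp1 (0.74). Of those, 2 stayed by Spearman correlation and 3 by deviations from the mouse mean. Between Ccl9 and Ccl24 themselves r was -0.43.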

How the data were processed

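The deposited file held UMI counts, which per the labels the authors made with kallisto 0.46.0 and bustools 0.39.2 on mm10. Gene counts rest on transcript words, so reads shared between genes can be lost. Symbols came from GENCODE M21 (11819 of 11820 IDs matched). Cells were used as deposited, and Scrublet (scanpy 1.11.5) marked 38 doublets (0.701%), which were kept.

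Cells were classed by counts, summed per mouse, and tested with edgeR 4.0.16 (TMM, quasi-likelihood, Benjamini-Hochberg 1%), checked on simulated data. Genes needed over 1 CPM in 2 sums (4 in the splits, where the mouse was a term because both sums come from 1 animal) and a UMI in 5% of cells. Alternatives were DESeq2 1.42.0, the likelihood-ratio test, other thresholds, thinning and leaving out mice. CPM in the text are of library totals. Named genes were the members, Ccr1, up to 4 called genes of each list, 5 rises and 5 falls per split, and 5 most alike. Members and lists were chosen with earlier results of these data known.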

Additional observations from a re-analysis of the deposited data

Results flagged for a closer look

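In library-scaled CPM, Ccr1 was higher in Lyve1 or Cd163 positive than in negative C1q-high cells of both chow mice (493 and 485 against 408 and 457 CPM) and lower in those of both HFD mice (334 and 0 against 523 and 530 CPM). The difference between the diets was -416 CPM. The HFD positive sums hold 7 and 4 cells with 5 and 0 UMIs of Ccr1, and the 0 allows up to 323 CPM. By Cd4, Ccr1 was higher in the positive cells of both chow mice (421 and 515 against 409 and 439 CPM) and lower in those of both HFD mice (495 and 452 against 523 and 533 CPM), a difference of -97.9 CPM. Neither difference between the diets was tested, and neither pattern holds under TMM scaling, where Ccr1 was lower in the Lyve1 or Cd163 positive cells of chow 11 (551 against 571 CPM) and higher in the Cd4 positive cells of HFD 1 (509 against 488 CPM).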

How the results depend on the processing

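In the Lyve1 or Cd163 split, 42 genes were called. The number was 105 by the likelihood-ratio test, 81 without the filter on low counts, 20 after thinning, 94 without TMM, and 205 and 193 in chow mice with and without the filter. Leaving out 1 mouse gave 2 to 54. Ccl9 (1.69 to 2.00 without 1 mouse) missed the limit without the filter (1.58), with a gate of 2 UMIs (2.05) and after thinning (1.80), and Ccl24 ranged from 2.49 to 3.41. In the Cd4 split, 14 genes were called, against 73 by the likelihood-ratio test, 80 without the filter, 25 with a C1q threshold of 25, 58 with a gate of 2 UMIs, and 0 and 113 in chow mice with and without the filter (465 at an unadjusted p under 0.05 for the 0, edgeR). Leaving out 1 mouse gave 10 to 23. Ccl9 (-1.55 to -1.05 without 1 mouse) passed by the likelihood-ratio test (-1.39), DESeq2 (-1.54), without the filter (-1.36), with a C1q threshold of 25 (-1.28), a gate of 2 UMIs (-1.18), after thinning (-0.91) and in chow mice without the filter (-0.97). Ccl24 (-3.63 to -1.80) missed by DESeq2 (-2.91). Without the replicate block, the term for the mouse, 6 and 0 genes were called in the 2 splits (196 at an unadjusted p under 0.05 for the 0, edgeR, against 19 calls by DESeq2 with the block). Ccl9 (1.87) and Ccl24 (1.79) missed the limit in the first, and Ccl24 (-3.91) in the second.

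By diet, all cells gave 803 calls, against 1306 by the likelihood-ratio test, 1218 without the filter and 150 to 920 without 1 mouse. Ccl9 was -0.087 without TMM and -0.55 to -0.091 without 1 mouse, and Ccl24 1.27 to 3.17. C1q-high cells gave 492 calls, against 830 by the likelihood-ratio test, 299 after thinning and 136 to 721 without 1 mouse, with Ccl9 at -0.86 to -0.45 and Ccl24 at 1.48 to 4.04. Ly6C+ cells gave 16 calls, against 91 by the likelihood-ratio test, 33 by DESeq2, 126 without the filter, 31 and 57 with Ly6c2 thresholds of 2.5 and 10, 31 after thinning and 0 to 35 without 1 mouse. Ccl9 was -1.42 after thinning and -1.40 to -0.99 without 1 mouse. Ccl24 was -2.32 with the Ly6c2 threshold of 10, turned to 2.54 without the richest cells and ranged from -1.54 to 8.54 without 1 mouse. The last value is without chow 11, where chow has no Ccl24 UMI, so its size rests on the prior count. The share of cells with Ccl9 differed by -6.30 percentage points, or -1.16 after thinning. Of the 5 genes most alike, 2 and 1 stayed for Ccl9 and 2 and 3 for Ccl24. Ccl24 did not pass the filter after thinning or in chow mice alone. The cause of these shifts was not tested. In the other 139 comparisons with an alternative, tested values kept their direction and their side of the limit, counts stayed within 1.5 times, and diet values moved by less than their standard error or SD. Which genes made up the counts was not compared. Where leaving out a mouse left 1 on a diet, that mouse was taken to vary like the rest. Fits without TMM, in chow mice and without the richest cells, and bins without their richest cell, were chosen after seeing the data.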
